A study of Mus musculus with 2 samples.

Results

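A group of 9 lysosomal enzyme genes was followed in sorted spinal microglia. They comprised 8 cathepsins (Ctsb, Ctsd, Ctss, Ctsz, Ctsl, Ctsa, Ctsc and Ctsh) and Hexa, which encodes the alpha subunit of the lysosomal β-hexosaminidases. The 9 were chosen by symbol from the 32285 genes of the count tables, and all 9 were found in both libraries.

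scRNA-Seq had been performed on microglia gated as CD45lo CD11bhi CX3CR1hi from the spinal cord of male mice, with transcripts read from the 3′ end and counted as unique molecular identifiers (UMIs). The control library came from Eif4ebp1 fl/fl mice, which the labels call WT. The 4E-BP1–cKO library came from mice with the same floxed alleles and a tamoxifen-inducible Cre under the microglial Tmem119 promoter (Eif4ebp1 fl/fl:TMEM119 CreERT2). The Cre had been induced with 4-hydroxytamoxifen given i.p. from P4 to P9. The study's methods give an age of 8 to 10 weeks for its mice, and how many mice each library stands for is not stated in the sources used here. The comparison asks how microglia in which the gene of the translational repressor 4E-BP1 was targeted differ from microglia in which it was not. With 1 library per genotype there was no replicate error and no test between genotypes. The 95% intervals below cover counting error only, which does not include differences between mice or between cells.

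After filtering, 1143 control cells (4791316 UMIs, median 3060 per cell) and 434 4E-BP1–cKO cells (1660668 UMIs, median 2703) remained, and no barcode was shared. At least 3 of 9 microglial markers were detected in 1022 and 365 cells. Markers of other cell types reached that minimum in 17 cells over both libraries, mostly markers of oligodendrocytes, endothelial cells and erythrocytes. The targeted gene Eif4ebp1 held 94 of the UMIs in the control library (19.6 CPM, that is, UMIs per 1000000 UMIs of the library) and 48 in the other library (28.9 CPM), so it was not lower in 4E-BP1–cKO cells. The study's genotyping assigns the conditional allele to exon 2, and counts from the 3′ end of the transcript need not cover it, so they do not check the label. The names control and 4E-BP1–cKO stand for the libraries so labelled, in every direction given below.

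Cathepsins are proteases that reach the lysosome as inactive precursors and are activated in its acid lumen. Ctsd is an aspartic protease, Ctsb, Ctss, Ctsz, Ctsl, Ctsc and Ctsh are cysteine proteases, and Ctsa is a serine carboxypeptidase that also protects β-galactosidase and neuraminidase. In microglia these enzymes degrade phagocytosed material, and Ctss in addition trims the invariant chain of MHC class II. The transcription factor TFEB and its relatives bind palindromes built on CACGTG in the promoters of many lysosomal genes.

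To show what stands at the starts of these genes, RefSeq promoter windows (GRCm38.p6, the build of the deposited tables; 250 bases before to 50 bases after a listed start) were searched for 2 nested palindromes, which read the same on both strands. Windows were listed for 7 of the 9 genes, 8 windows in all. CACGTG was found in 3 of the 8 windows, against 7.15% of 32851 windows of the same length. TCACGTGA was found in 2 of the 8, against 0.974%, and its matches are also matches of CACGTG. The 30-base stretches around the matches are given 5′ to 3′ on the strand of the gene, with the longest matching palindrome in capitals.
Ctsd, 98 bases before the start, outside the gene, chr7:142387908-142387937, minus strand: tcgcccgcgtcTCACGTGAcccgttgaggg
Ctsd, 245 bases before the start, outside the gene, chr7:142388048-142388077, minus strand: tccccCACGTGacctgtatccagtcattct
Ctsa, across an internal start within the gene, chr2:164833757-164833786, plus strand: ctgTCACGTGAtgcagatgcTCACGTGAcc
Ctsl, 236 bases before the listed start, within the outer limits of the gene, chr13:64370739-64370768, minus strand: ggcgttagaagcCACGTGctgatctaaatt
Ctsd and Ctsa thus carried the longer form, Ctsa with 2 copies. A match describes letters only, and factor binding was not measured.

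The enzymes spanned a range of about an order of magnitude in transcript level, given here in CPM, with the UMIs of the library as the total. The values were not divided by gene length, because UMIs were counted at the 3′ end. Ctss, on chromosome 3 (mm10, 95526786 to 95556405), was the most abundant, with 3357 CPM (16083 UMIs) in the control library and 3553 CPM (5900 UMIs) in the 4E-BP1–cKO library. It ranked 8th and 10th among all genes. Ctsd, on chromosome 7 (142375910 to 142387827), followed at 1916 and 2183 CPM, in the 33rd and 28th place. Below these 2 lay Ctsl (chromosome 13, 64361890 to 64370772) with 1049 and 1103 CPM and Ctsb (chromosome 14, 63122462 to 63145923) with 1045 and 1201 CPM. The intervals of Ctsl and Ctsb overlapped in each library. In the 4E-BP1–cKO library they met only at their ends (1053 to 1155 CPM for Ctsl and 1149 to 1255 CPM for Ctsb). The order of these 2 was not tested. Ctsc, whose product activates serine proteases of immune cells, lies on chromosome 7 (88278024 to 88315861) and measured 812 and 880 CPM. Ctsz, a carboxypeptidase, lies on chromosome 2 (174427494 to 174439039) and measured 634 and 699 CPM. Ctsh, an aminopeptidase, lies on chromosome 9 (90054267 to 90076095) and measured 386 and 402 CPM. Ctsa (chromosome 2, 164832872 to 164841032) measured 329 and 311 CPM, and Hexa (chromosome 9, 59539540 to 59565109) measured 284 and 314 CPM. The last pair changed places between the libraries, with overlapping intervals in the 4E-BP1–cKO library. Ctsa overlaps Neurl2 and Pltp, Ctsz overlaps Nelfcd, Ctsb overlaps Fdft1, Ctss overlaps Hmgb1-ps5 and Hexa overlaps Tmem202 in the annotation, so reads from the overlapped parts may have been assigned either way or dropped.

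Together the enzymes took 9812 CPM in the control library and 10646 CPM in the 4E-BP1–cKO library, a ratio of 1.08 (95% interval 1.07 to 1.10). Of the 9 values, 8 were higher in the 4E-BP1–cKO library, none by more than 1.15-fold. Ctsb had the highest ratio, 1.15 (1.09 to 1.21), and Ctsd was close to it at 1.14 (1.10 to 1.18). The ratio was 1.10 (1.03 to 1.18) for Ctsz, 1.08 (1.02 to 1.15) for Ctsc and 1.06 (1.03 to 1.09) for Ctss. The intervals of Hexa (ratio 1.11), Ctsl (1.05), Ctsh (1.04) and Ctsa (0.945) included 1. No enzyme was past 1.5-fold in either direction, where 1.18% of the 4847 genes with at least 200 UMIs were higher and 3.36% lower by that amount. The counting interval lay above 1 for 5 of the 9 and below 1 for 0, against 13.9% and 19.2% of all tested genes, whose median UMI count was 505 against 5352 for the enzymes, so that their intervals were wider. The median log2 ratio was 0.12 for the enzymes and -0.03 for all tested genes. Without the 17 cells carrying markers of another type, the summed ratio was 1.09 (1.08 to 1.11).

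**Figure D1:**
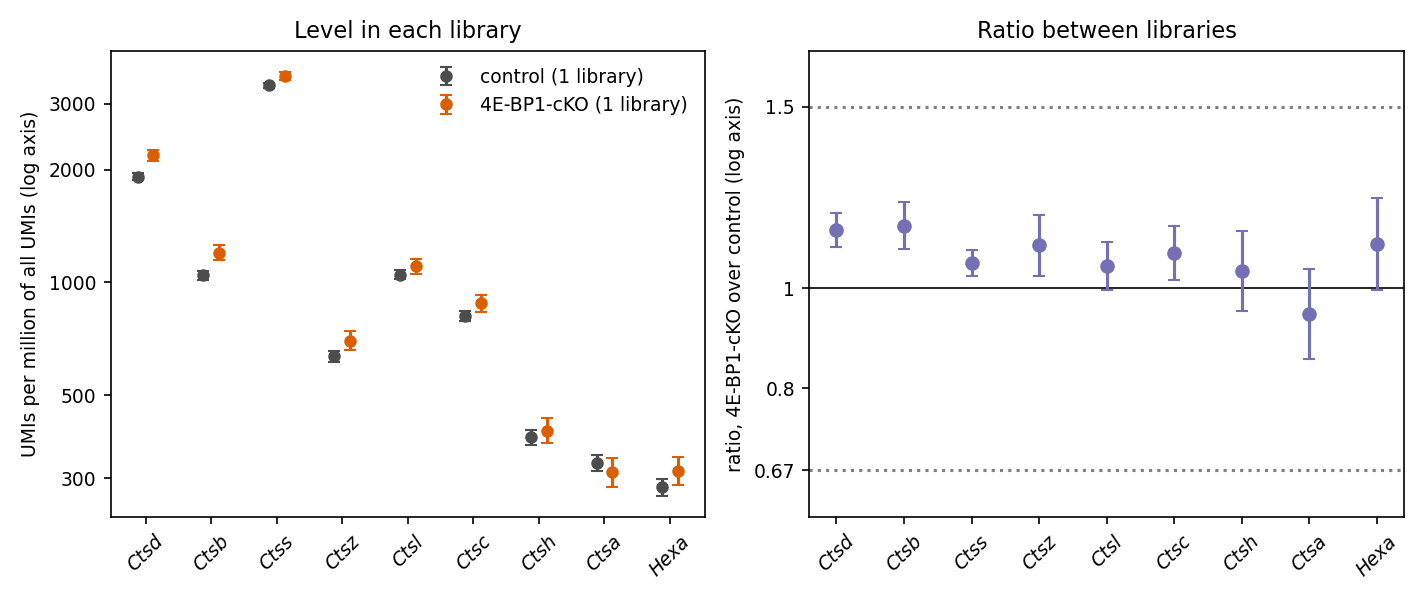
Level of each enzyme in each library (left, CPM on a log axis) and ratio of the 4E-BP1–cKO to the control library (right, log axis; dotted lines at 1.5-fold in either direction). Points are single libraries and bars are 95% Poisson counting intervals; all 9 ratios lie between 0.945 and 1.15, well inside the dotted lines.

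The cells fell into a range with very few ribosomal protein transcripts and a range with more. Cells with under 2.5% of their UMIs from ribosomal protein genes, called ribosome-poor here, made up 614 of 1143 control cells (53.7%) and 193 of 434 4E-BP1–cKO cells (44.5%). This is a range and not a cell type, and 108 and 32 cells lay within 0.5 percentage points of the limit. Most of the enzymes took a smaller share of UMIs in ribosome-poor cells. Their sum was 6320 against 11632 CPM in the control library, a ratio of 0.543 (0.532 to 0.555), and 7308 against 11884 CPM in the 4E-BP1–cKO library, a ratio of 0.615 (0.592 to 0.639).

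Ctss differed most between the ranges. It stood at 1105 CPM in ribosome-poor cells against 4530 CPM in the other control cells, and at 1173 against 4436 CPM in the 4E-BP1–cKO library. The ratios were 0.244 (0.232 to 0.256) and 0.264 (0.241 to 0.289). Among all tested genes, its ratio lay at percentile 3.16 and 5.18 from below. Without Ctss, the ratio of the sum over the remaining 8 rose to 0.734 in the control and 0.824 in the 4E-BP1–cKO library.

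Ctsl and Ctsz were also lower in ribosome-poor cells in both libraries. Ctsl measured 732 against 1214 CPM in the control library (ratio 0.603) and 703 against 1252 CPM in the 4E-BP1–cKO library (0.562). Ctsz measured 401 against 756 CPM (0.53) and 496 against 774 CPM (0.641). With Ctss these made 3 of 9 enzymes lower by more than 1.5-fold in each library, where 19.8% and 22% of all tested genes were. The count was 5 and 4 without ribosomal and mitochondrial genes in the total (21.6% and 24.6% of all genes). It was 5 and 1 when each cell counted equally and 5 and 2 in cells thinned to the same depth. For these 2 settings the share of all genes was not counted, so the counts have no background. A smaller difference was seen for Ctsd (0.676 in the control and 0.817 in the 4E-BP1–cKO library), Ctsh (0.671 and 0.796), Hexa (0.722 and 0.68) and Ctsb (0.757 and 0.911). The intervals of Ctsb in the 4E-BP1–cKO library and of Ctsa in both libraries (0.935 and 1.001) included 1. The median log2 ratio of the enzymes was -0.56 and -0.33, against 0.19 in each library for all tested genes.

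Ctsc went the other way. It measured 929 CPM in ribosome-poor cells against 751 CPM in the other control cells, a ratio of 1.24 (1.16 to 1.32). In the 4E-BP1–cKO library it measured 1055 against 815 CPM, a ratio of 1.29 (1.16 to 1.45). These ratios lay at percentile 59.5 and 60.2 from below among all tested genes, not far above the middle. Ctsc was the only 1 of the 9 with an interval above 1 in either library. It was not past 1.5-fold, as 17.5% and 26.9% of all tested genes were. In the control library its log2 ratio of 0.31 lay between 0.22 and 0.36 under the alternatives run, whereas in the 4E-BP1–cKO library it was 0.37 from summed UMIs, 0.03 when each cell counted equally and 0.03 in cells thinned to the same depth.

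**Figure D2:**
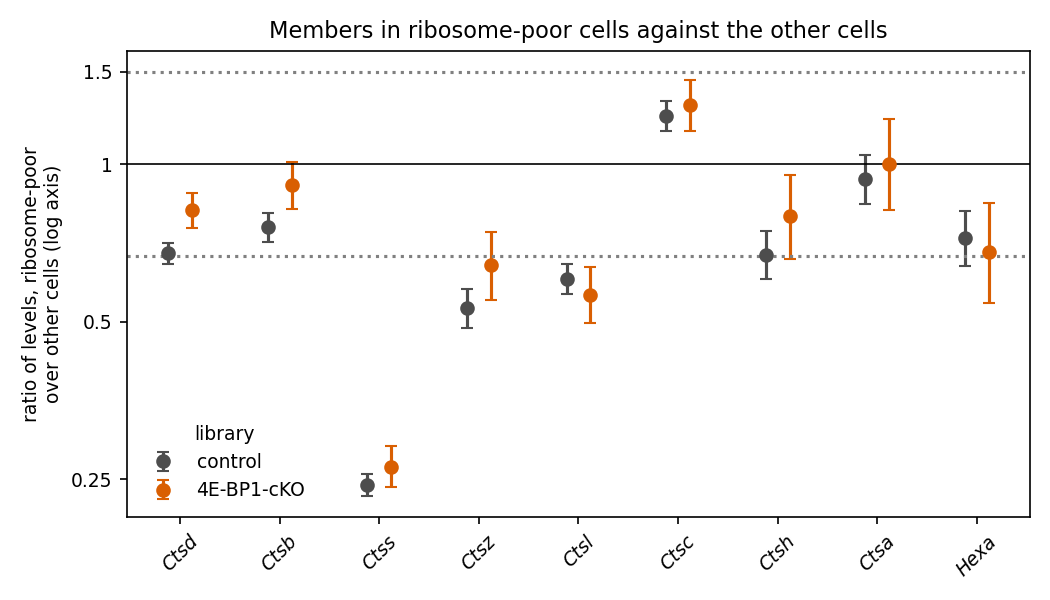
Ratio of the level of each enzyme in ribosome-poor cells to that in the other cells of the same library (log axis, bars 95% counting intervals, dotted lines at 1.5-fold). Ctss lies near 0.25 in both libraries, Ctsc above 1 and Ctsa near 1.

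Other properties moved with the ribosomal share. Ribosome-poor cells held a median of 2356 UMIs against 5482 in the control library and 1884 against 4619 in the 4E-BP1–cKO library. Malat1, a nuclear RNA, took 4.87% against 2.77% of UMIs in the control and 5.12% against 3.16% in the 4E-BP1–cKO library. The 9 microglial markers summed to 4604 against 8629 CPM and 4299 against 7455 CPM, and none of the 9 was at 0. Genes of ex vivo activation took 1.77% against 2.95% and 2.01% against 3.74% of UMIs. The part of these properties in the enzyme differences was not tested.

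The relation was graded along the ribosomal share for Ctss. From cells under 1% through 1 to 2.5%, 2.5 to 5%, 5 to 10% and at least 10% of ribosomal protein UMIs, Ctss measured 839, 1235, 3787, 4531 and 5849 CPM in the control library. In the 4E-BP1–cKO library the series was 990, 1359, 3233, 4755 and 5173 CPM. Ctsc was highest in the lowest range and lowest in the highest range, with 1054 and 524 CPM in the control library and 1078 and 672 CPM in the 4E-BP1–cKO library. Ctsa stayed between 284 and 357 CPM in the control library and between 273 and 351 CPM in the 4E-BP1–cKO library.

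In the summed level of the enzymes, the libraries were closer to each other in the other cells than in the ribosome-poor cells. Of all tested genes, 13.5% were past 1.5-fold in either direction between libraries in the ribosome-poor range, against 6.15% in the other cells. The ribosome-poor cells held fewer UMIs, 1641505 against 3149811 in the control and 449357 against 1211311 in the 4E-BP1–cKO library. The part of counting noise in these shares was not tested. Summed over the 9, the ratio of 4E-BP1–cKO to control was 1.16 (1.11 to 1.203) in ribosome-poor cells and 1.02 (1.002 to 1.04) in the other cells. In ribosome-poor cells Ctsb measured 863 CPM in the control and 1122 CPM in the 4E-BP1–cKO library, a ratio of 1.30 (1.17 to 1.44). A single 4E-BP1–cKO cell held 69 Ctsb UMIs, and without it the ratio was 1.22 (1.09 to 1.36). Ctsd measured 1457 and 1876 CPM there, a ratio of 1.29 (1.19 to 1.39). Of the 9, 0 were higher by more than 1.5-fold in ribosome-poor cells, against 5.08% of all tested genes. In the other cells the ratio was 1.08 for Ctsb and 1.07 for Ctsd. For Ctss it was 1.06 (0.961 to 1.17) in ribosome-poor cells and 0.979 (0.949 to 1.01) in the other cells, both intervals including 1. For Ctsz it was 1.24 (1.06 to 1.44) and 1.02 (0.948 to 1.10), and for Ctsc 1.14 (1.02 to 1.26) and 1.08 (1.01 to 1.17). Without a single 4E-BP1–cKO cell that held 55 Ctsc UMIs, the Ctsc ratio in ribosome-poor cells was 1.09 (0.975 to 1.21). That interval included 1. The part of the mix of ranges in the ratios between whole libraries was not tested.

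Clustering gave 9 groups of cells, numbered by size from 344 to 42 cells. Clusters 1, 2, 7 and 8 had a median ribosomal share between 1.17% and 1.34%, and cluster 9 had 18.9%. Because the clusters were built from the same transcripts, their differences are described and not tested. The summed level ran from 5991 CPM in cluster 2 to 15274 CPM in cluster 9, a ratio of 2.55. When the cells were clustered without the 9 enzymes and 64 further lysosomal genes, that ratio was 2.59.

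Ctss had the widest range over clusters, from 1029 CPM in cluster 2 to 6881 CPM in cluster 9. Its fold of 6.69 exceeded that of Ctsz (3.06), Ctsl (2.46), Ctsc (2.35), Ctsd (1.95), Ctsh (1.87), Ctsb (1.79), Hexa (1.69) and Ctsa (1.47). With both libraries pooled, cluster 9 was highest for 7 of the 9 enzymes, and the share of all genes highest there was not counted. The exceptions were Ctsa, which was highest in cluster 5 with 385 CPM, and Ctsc, which was highest in cluster 1 with 1239 CPM and next in cluster 8 with 1171 CPM. Ctsc was low in cluster 2 with 527 CPM and in cluster 6 with 536 CPM, so that ribosome-poor clusters held both ends of its range. In 4E-BP1–cKO cells alone, of which cluster 9 held 17, it was highest for Ctss and Ctsz only. There Ctsb was highest in cluster 8 (1559 against 1238 CPM in cluster 9), Ctsd in cluster 5 (2660 against 2003 CPM), Ctsl in cluster 6 (1453 against 1249 CPM), Ctsh in cluster 1 (471 against 450 CPM) and Hexa in cluster 7 (526 against 383 CPM).

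**Figure D3:**
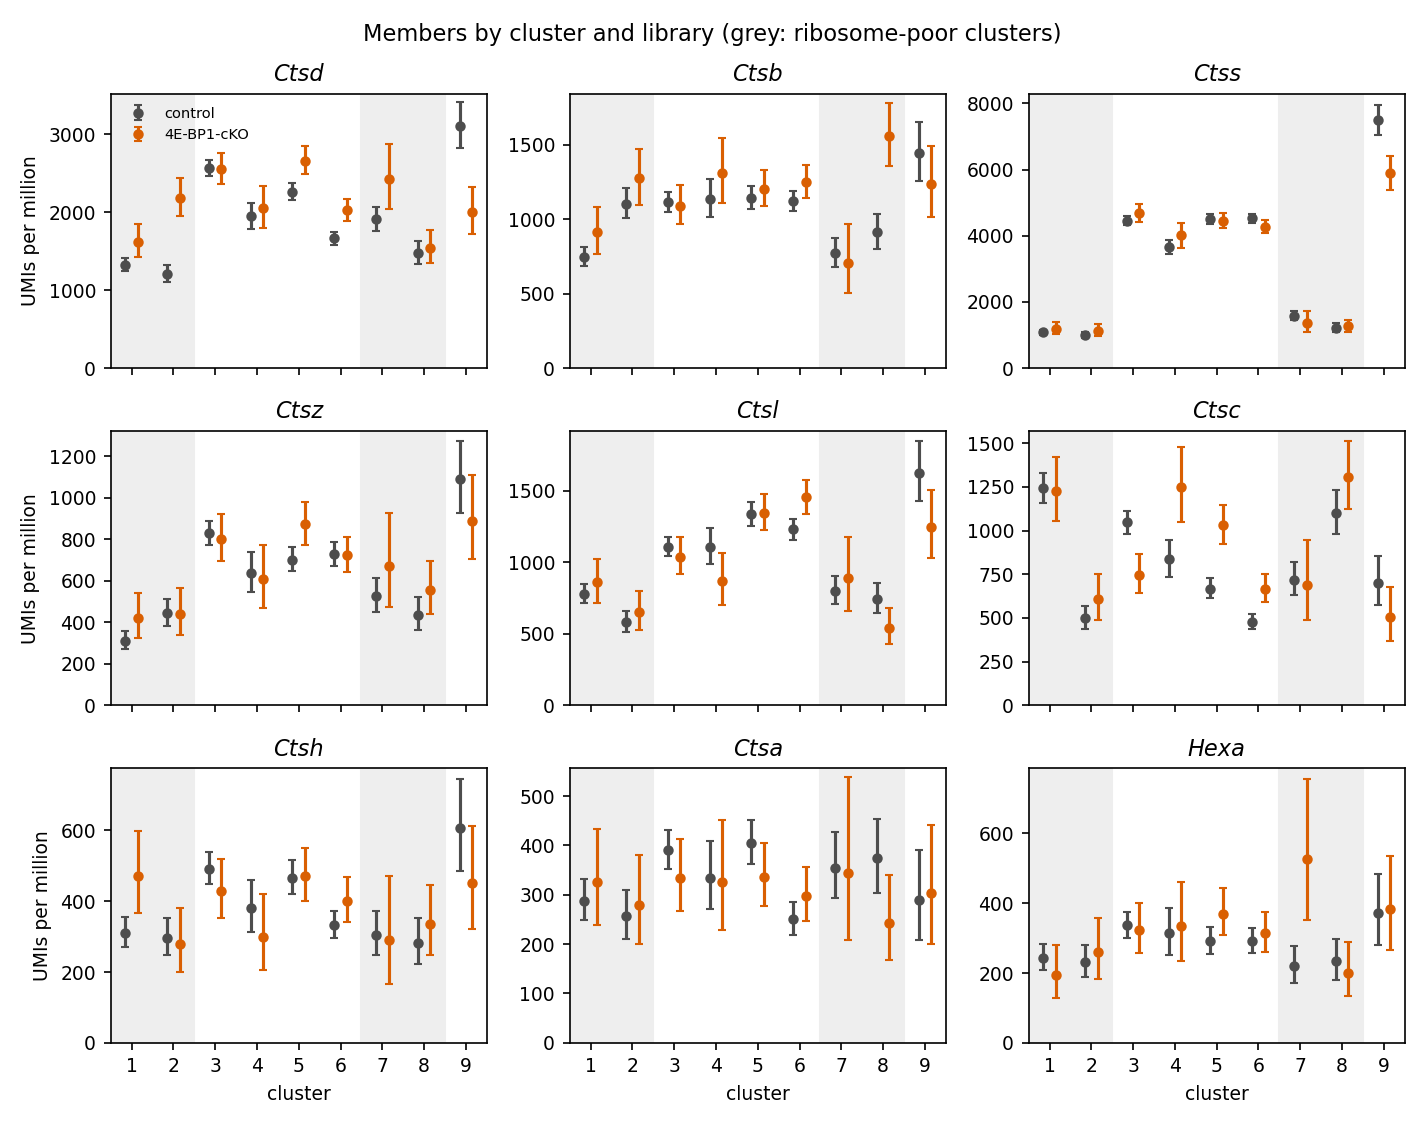
Level of each enzyme (CPM, linear axis from 0) by cluster in the control and the 4E-BP1–cKO library, with 95% counting intervals; grey bands mark the clusters with a low ribosomal share. Ctss is low in all 4 grey clusters. Ctsc is highest in clusters 1 and 8 of the control library and in clusters 8, 4 and 1 of the 4E-BP1–cKO library (1308, 1249 and 1226 CPM).

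In all, 8 clusters held at least 20 cells of each library, cluster 9 having 17 4E-BP1–cKO cells. The summed level was higher in the 4E-BP1–cKO library in 7 of the 8, with an interval above 1 in 5, and cluster 3 had a ratio of 0.974 (0.936 to 1.01). Of the 70 enzyme and cluster pairs with at least 100 UMIs, 4 were over 1.5-fold higher and 1 was over 1.5-fold lower, where 4.94% and 9.02% of 12095 gene and cluster pairs were. The interval lay above 1 in 15 of the 70 pairs and below 1 in 5, against 10.6% and 12.3% of all pairs. Over both libraries the enzymes had a median of 5352 UMIs against 505 for all tested genes, and more UMIs make an interval narrower.

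Ctsd showed the widest spread of higher values, with an interval above 1 in 5 of 8 clusters. In cluster 2 it measured 1208 CPM in the control and 2185 CPM in the 4E-BP1–cKO library, a ratio of 1.81 (1.57 to 2.09), and 1.65 without the cell with the most Ctsd UMIs. Ctsb was higher in cluster 8, with 911 and 1559 CPM and a ratio of 1.71 (1.42 to 2.06). That cluster held the cell with 69 Ctsb UMIs, and without it the ratio was 1.56. In the same cluster Ctsa measured 374 and 243 CPM, a ratio of 0.65 (0.427 to 0.967), and without its top cell 0.706 with an interval that included 1 (0.462 to 1.06). Ctsh measured 310 and 471 CPM in cluster 1, a ratio of 1.52 (1.14 to 2.004). Hexa measured 220 and 526 CPM in cluster 7, where the 4E-BP1–cKO library had 23 cells and 29 Hexa UMIs.

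Ctsc moved in both directions. In cluster 5 it measured 668 CPM in the control and 1029 CPM in the 4E-BP1–cKO library, a ratio of 1.54 (1.34 to 1.77), and in cluster 4 it measured 835 and 1249 CPM, a ratio of 1.496 (1.204 to 1.85). In cluster 3 it measured 1046 and 748 CPM, a ratio of 0.716 (0.609 to 0.837).

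Each enzyme was found in fewer cells than an equal share per cell would give, and the gap was widest for Ctsc. In the control and the 4E-BP1–cKO library, 90.2% and 90.6% of cells held a Ctsd UMI, and 89.7% and 87.6% held a Ctss UMI. Detection was 80.3% and 77.6% for Ctsb, 76.9% and 76.3% for Ctsl, 67.8% and 69.1% for Ctsz, and 66.5% and 65.9% for Ctsc. It was 57.7% and 59.0% for Ctsh, 57.0% and 53.7% for Ctsa, and 51.4% and 48.8% for Hexa. Had each cell held the same share of a gene, detection would have been 3.15 to 12.2 percentage points higher for the 8 genes other than Ctsc over both libraries. For Ctsc the gap was 18.2 points in the control library, against an expected 84.7%, and 15.8 points in the 4E-BP1–cKO library. The same gap was not counted for other genes of like level. The study's gate left no other cell type in numbers, so the share of UMIs from free RNA could not be set beside these values.

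Ctsc was the most unevenly spread enzyme over cells. The excess variance, which is the squared coefficient of variation of the share after the counting variance is taken out, was 1.36 for control and 1.24 for 4E-BP1–cKO cells. The other 8 ranged from 0.177 to 0.442. Within clusters it was still 1.28 and 1.03 for Ctsc and at most 0.309 for the others. Among the genes within 1.5-fold of its level, Ctsc stood at percentile 94.1 of 221 genes in the control library. In the 4E-BP1–cKO library it stood at percentile 95.1 of 203 genes, and the medians of these genes were 0.576 and 0.556. Against genes of like level, the other 8 stood below the middle, between percentile 7.63 (Hexa) and 47.4 (Ctss) in the control library. In the 4E-BP1–cKO library they stood between 4.80 (Ctsa) and 23.9 (Ctsl). The tenth of cells with the most Ctsc UMIs, 115 control and 44 4E-BP1–cKO cells, held 51.1% and 55.7% of them. The same share was 37.3% to 46.4% for the other enzymes, and 1 control cell held 73 Ctsc UMIs against a median of 1 per cell.

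Whole sets of enzymes were seen per cell. A UMI of all 9 was present in 246 control cells (21.5%) and in 100 cells of the 4E-BP1–cKO library (23.0%), and 1 and 2 cells held none of them. The mean number was 6.38 and 6.29. After each cell was thinned to 867 UMIs, which left 1056 and 364 cells, the mean was 3.80 (SD 1.56 over cells) and 4.23 (SD 1.69). The order of the libraries thus differed in the thinned cells. Thinning also left out the shallowest cells, 87 of 1143 control and 70 of 434 4E-BP1–cKO cells. The part of their removal in this order was not tested. At this depth ribosome-poor cells held 3.25 and 3.56 enzymes and the other cells 4.52 and 4.74. Ctss was then found in 55.3% and 56.7% of ribosome-poor cells against 94.7% of the other cells in each library, while Ctsc was found in 37.5% and 39.5% against 42.3% and 43.5%.

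**Figure D4:**
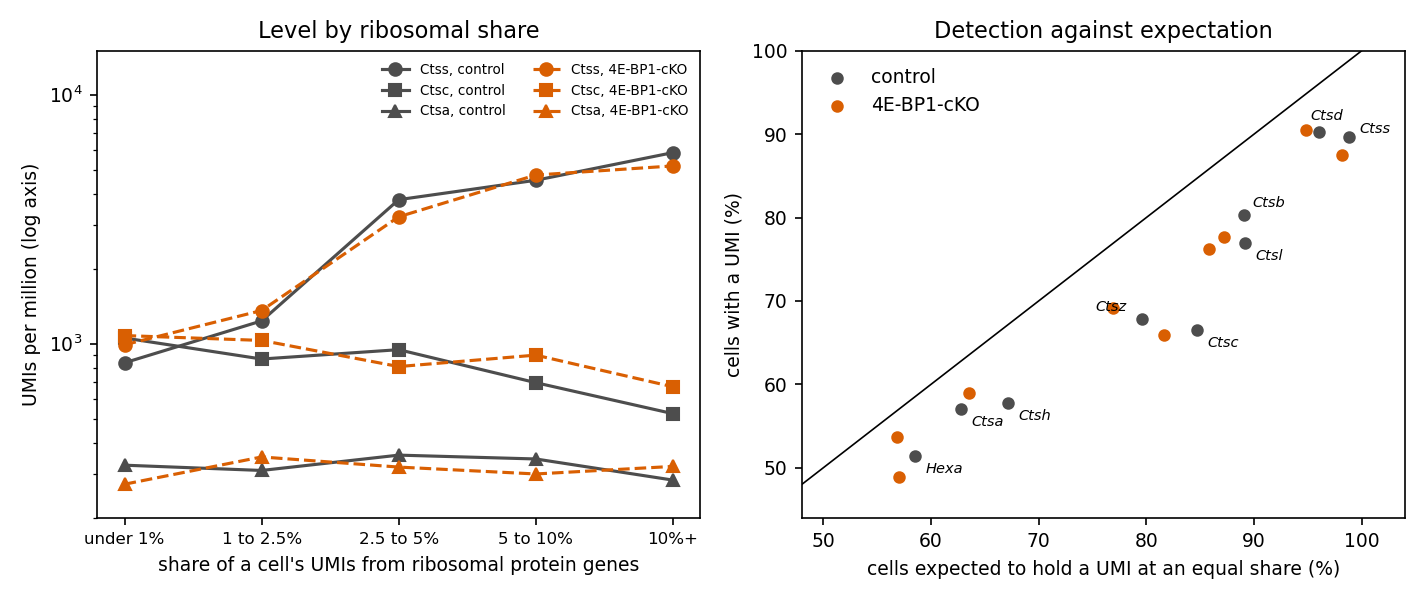
Left, level of Ctss, Ctsc and Ctsa (CPM, log axis) by the share of a cell's UMIs from ribosomal protein genes in each library. Right, percentage of cells with at least 1 UMI of each enzyme against the percentage expected at an equal share per cell, with the line of equality; every enzyme lies under the line and Ctsc lies farthest under it, by 18.2 and 15.8 points.

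Over cells, the correlations between the enzymes were low once depth was taken out. Each cell's count was set against that expected from its total, and the residuals of each of the 36 pairs were correlated within a library. The median Pearson r was 0.097 over 1143 control cells and 0.104 over 434 4E-BP1–cKO cells. Ctsd and Ctsz (r = 0.38 and 0.42), Ctsd and Ctss (0.41 and 0.27), Ctss and Ctsz (0.35 and 0.31) and Ctss and Ctsl (0.28 in each) were the pairs with the highest values. The pairs of Ctsc lay between -0.07 and 0.06. Counts per cell were small, and the part of counting noise in these r values was not tested. Genes of like level were not set beside them. Cells of a library share depth and ribosomal range, and the median fell to 0.023 and 0.057 within ribosome-poor cells and was 0.103 and 0.126 within the other cells.

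**Figure D5:**
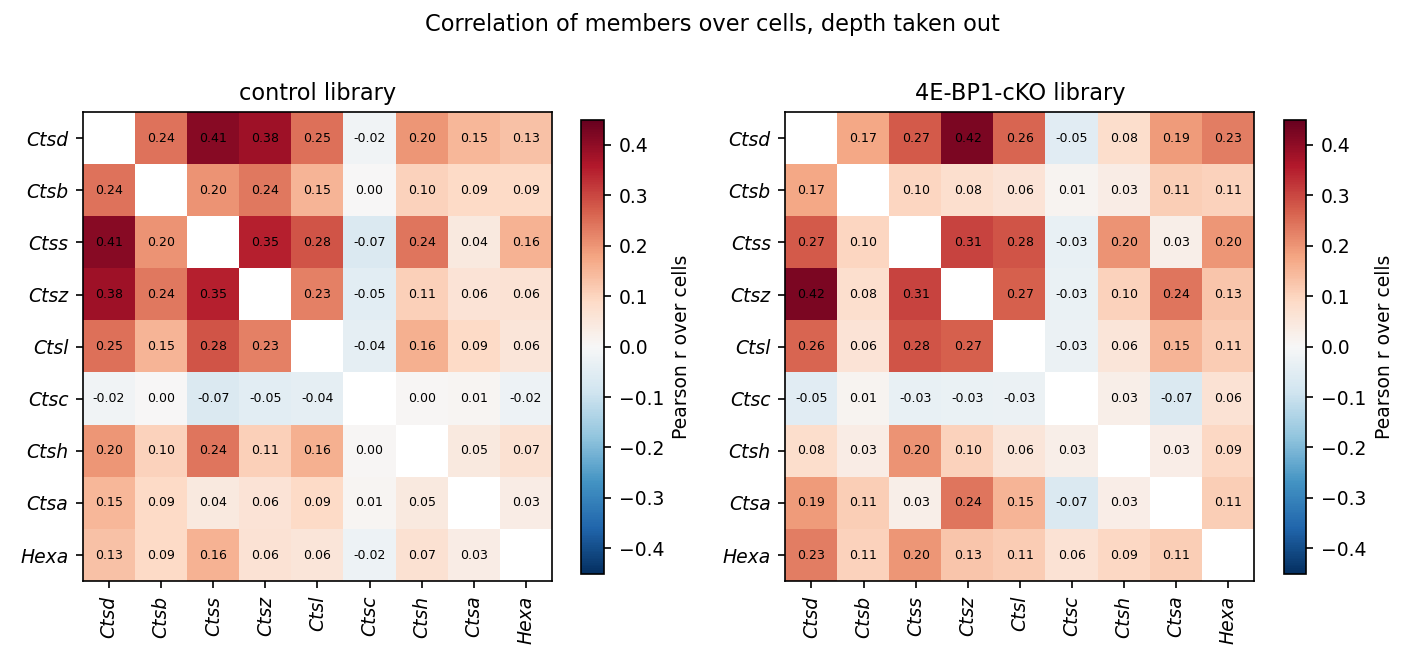
Pearson correlation over cells of the residual counts of each pair of enzymes, in 1143 control cells (left) and 434 4E-BP1–cKO cells (right). Values among Ctsd, Ctss, Ctsz and Ctsl lie between 0.23 and 0.42, and the row of Ctsc lies near 0.

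Levels were also correlated over the 17 cluster and library combinations with at least 20 cells, which share libraries and ribosomal content. Ctss followed Ctsl (r = 0.88) and Ctsz (0.88), and Ctsd followed Ctsz (0.82). Ctsh and Hexa also went with these genes here, Ctsh with Ctsl (0.73) and Ctss (0.69), and Hexa with Ctsd (0.73) and Ctsz (0.68), whereas Ctsc had r between -0.26 and 0.23 with the other 8. Among 2443 genes, the profile of the summed enzymes was most like that of Tyrobp (0.98), a microglial signaling adaptor, Aif1 (0.98), which encodes Iba1, and the complement genes C1qa, C1qc and C1qb. The nearest profile to Ctss was that of Cst3 (0.99), which encodes the cysteine protease inhibitor cystatin C. The nearest to Ctsd were Itm2c (0.91) and Lamp1 (0.87), a lysosomal membrane protein. Ctsz was nearest to Cox6b1 (0.96), a respiratory chain gene, Ctsl to Oaz1 (0.93), Ctsh to Camk1 (0.86), Ctsb to Purb (0.85) and Hexa to Rac1 (0.85). Ctsc was nearest to Atrx (0.84), a chromatin remodeler, and Ctsa had no gene above 0.71 (Rps6ka1).

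Of 64 other lysosomal genes in 8 lists, 44 had at least 200 UMIs. Among them 1 was higher by more than 1.5-fold in the 4E-BP1–cKO library and 0 were lower, where 1.18% and 3.36% of all tested genes were, and the median log2 ratio was 0.03, against -0.03 for all tested genes. The gene was Gnptab, which makes the mannose 6-phosphate tag that sorts hydrolases to the lysosome, with 29.6 and 47.6 CPM from 142 and 79 UMIs. Of the other sorting genes, M6pr, a receptor for that tag, measured 154 and 183 CPM, Scarb2 255 and 214 CPM, and Sort1 98.9 and 81.9 CPM. Cst3 measured 16052 and 19175 CPM, a ratio of 1.19 (1.18 to 1.21). Cstb, which encodes the inhibitor cystatin B, measured 101 and 144 CPM, a ratio of 1.42 (1.22 to 1.67), and Lgmn, a protease that processes cathepsins, measured 1476 and 1521 CPM.

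No tested gene of the remaining lists was past 1.5-fold between the libraries. Cd68, the lysosomal protein often used as a mark of phagocytic microglia, measured 170 and 187 CPM, a ratio of 1.10 (0.962 to 1.255). Among the other membrane and lumen genes, Laptm5 measured 838 and 867 CPM, Lamp1 495 and 575 CPM, Lamp2 522 and 497 CPM, Npc1 91.8 and 84.9 CPM and the cholesterol carrier Npc2 421 and 497 CPM. Psap, the precursor of the saposin cofactors, measured 685 and 735 CPM, and Gm2a, the activator protein that works with β-hexosaminidase, measured 77.0 and 66.2 CPM. The transcription factor genes stood at 86.6 and 93.3 CPM for Tfeb, 82.9 and 112 CPM for Tfe3 and 329 and 260 CPM for Mitf. The ratio was 1.35 (1.13 to 1.61) for Tfe3 and 0.790 (0.709 to 0.879) for Mitf. Of the 21 other hydrolases tested, Arsb measured 438 and 369 CPM, a ratio of 0.841 (0.767 to 0.920), and Man2b1 241 and 272 CPM. Their ratios ran from 0.779 for Lipa to 1.18 for Manba. Ctsf (64.5 and 78.3 CPM) and Ctso (39.5 and 36.1 CPM) were the other cathepsins tested, and Cd74, the invariant chain that Ctss trims, measured 121 and 151 CPM, a ratio of 1.24 (1.07 to 1.44).

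In ribosome-poor cells, 14 of these 44 genes were lower and 3 higher by more than 1.5-fold in the control library, where 19.8% and 17.5% of all tested genes were. In the 4E-BP1–cKO library 11 were lower and 4 higher, where 22% and 26.9% of all tested genes were. The median log2 ratio over the 44 was -0.13 and -0.06, against 0.19 in each library for all tested genes. Cst3 (log2 ratio -2.44 and -2.67), Gm2a (-1.67 and -2.18), Laptm5 (-1.42 and -1.29) and Cd68 (-1.32 and -0.98) were lower in both. The transcription factor genes Tfeb (0.76 and 0.84) and Mitf (0.72 and 0.91) were higher in both, and Tfe3 was near 0 in the control and at 0.06 in the 4E-BP1–cKO library. Across the 21 other hydrolases the median was 0.10 and -0.04.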

How the data were processed

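The members, the gene lists and the 2.5% limit for ribosome-poor cells were chosen with earlier results of these data known. Tables of unnormalized UMI counts, genes by barcodes, were deposited by the authors. Their source was Cell Ranger (8.0.1 in the table headers) on mm10, with cell calling applied. Barcodes needed over 300 genes with a UMI and a mitochondrial share below 5%. Scrublet (scanpy 1.11.5) called 4 control and 11 4E-BP1–cKO doublets, which were left out. The study removed doublets with scDblFinder and kept fewer cells of each genotype, so the cells here include some that it left out. UMIs were summed per library, range or cluster and given as CPM. Log2 ratios used a pseudocount of 1 CPM, while ratios and exact conditional Poisson 95% intervals used the counts. Clusters were made with sctransform 0.4.2, RPCA and 20 principal components at resolution 1.4 in Seurat 5.3.0 (R 4.3.3). "Past" a fold means beyond 1.5-fold among genes with at least 200 UMIs. Of each list were named the up to 3 genes with the most UMIs, those with the highest and lowest ratio, and Cd68; 1 gene that this rule names is not reported here. Profiles were correlated as log2(CPM + 1) over genes with at least 500 UMIs, and named from the 3 (5 for the sum) most like a member. Steps were checked on simulated counts. Alternatives included TMM factors (edgeR 4.0.16), DESeq2 1.42.0 size factors, other filters, cuts, resolutions and thinning. Proteins and empty droplets were not analysed here.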

Additional observations from a re-analysis of the deposited data

Results flagged for a closer look

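Ctsd stood out in barcodes that the mitochondrial filter had removed and that entered no comparison above. In the 65 control barcodes with at least 5% mitochondrial UMIs it took 4115 CPM, 2.15 times (1.95 to 2.36) its level in the kept cells, and in the 25 such 4E-BP1–cKO barcodes it took 5474 CPM, 2.51 times (2.15 to 2.91). Ctsd was the only 1 of the 9 enzymes whose interval lay above 1 in both libraries. In the control library, the intervals of Ctsb (ratio 1.46), Ctsa (1.48) and Ctsz (1.28) also lay above 1. Those of Ctss (0.672), Ctsc and Ctsh (0.644) lay below 1. In the 25 barcodes of the 4E-BP1–cKO library the intervals were wider, and those of Ctsb (1.10), Ctsa (1.16) and Ctsz (1.29) included 1. The share of all genes above 1 in both libraries was not counted. In the removed control and 4E-BP1–cKO barcodes, Ctsc took 304 and 632 CPM. These were 0.374 and 0.718 times its level in the kept cells, with an interval reaching 1 in the 4E-BP1–cKO library. The removed barcodes held a median of 1048 and 732 UMIs. The part of damage or depth in these values was not tested.

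Ctsc differed between the libraries in opposite directions in different clusters. The ratio of 4E-BP1–cKO to control was 0.716 in cluster 3, 1.496 in cluster 4 and 1.54 in cluster 5. These 3 clusters were picked because their intervals excluded 1 with and without the cell holding the most Ctsc UMIs, so the intervals add no support. They also leave out the spread between cells. For Ctsc the excess variance within clusters was 1.28 in control and 1.03 in 4E-BP1–cKO cells. The difference between clusters was not tested, since each genotype had 1 library.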

How the results depend on the processing

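Of 84 alternative values for 10 results, 62 stayed within the band set around the reported value and 22 moved. The band was the counting interval for ratios and 1.5 times the value for counts. For enzymes per cell and correlations it was an interval over cells, which took cells as replicates. A reversal was defined only for the summed ratios between libraries and between ribosome-poor and other cells, where 0 were seen. Among single enzymes, the log2 ratio of Ctsl between libraries (0.07) was -0.02 as a mean of ratios within clusters. That of Ctsa (-0.08) was 0.05 as a mean over cells. The summed log2 ratio between libraries, 0.12 as reported, was 0.15 with TMM factors, 0.17 with DESeq2 size factors and 0.16 as a mean over cells. The count of enzymes past 1.5-fold between libraries was 0 under all alternatives run. The count of other lysosomal genes past it, 1 as reported, was 3 as a mean over cells, 0 with a pseudocount of 10 CPM and 2 with a minimum of 20 UMIs. The summed log2 ratio of ribosome-poor to other control cells, -0.88 as reported, was -0.79 with a limit of 3%, -0.97 without ribosomal and mitochondrial genes in the total, -0.92 in thinned cells, -0.93 as a mean over cells and -0.45 without Ctss. In the 4E-BP1–cKO library (-0.70) it was -0.81 without those genes in the total and -0.28 without Ctss. The enzymes per cell numbered 5.36 and 5.61 when thinned to the 25th percentile, and 6.38 and 6.29 without thinning. The median correlation in the control library fell to 0.023 within ribosome-poor cells. The ratio of the highest to the lowest cluster (2.55) was 1.88 at resolution 0.8, 3.12 without ribosomal and mitochondrial genes, 2.98 in control cells alone and 1.79 in 4E-BP1–cKO cells alone. The settings without Ctss, without cells carrying markers of another type and without a top cell were chosen after seeing the data. Of 21 cluster ratios with an interval excluding 1, the interval of 6 came to include 1 without the top cell: Ctsl in clusters 4 (0.811) and 8 (0.790), Ctsa in 8 (0.706), Hexa in 5 (1.205), Ctss in 6 (0.955) and Ctsc in 6 (1.18).

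No paired analysis was possible because each genotype had 1 library. The difference between genotypes cannot be told apart from differences between mice, sorts or library preparations. The control genotype names no Cre, so the difference also cannot be told apart from the presence of the Cre. At a median depth of 3060 and 2703 UMIs per cell, Ctsa, Ctsc, Ctsh and Hexa had a median of at most 1 UMI per cell.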
